A study of Mus musculus with 3 samples.

Results

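The 8 genes described here encode collagens other than the fibril-forming and basement membrane types: Col6a1, Col6a2, Col6a3, Col8a1, Col12a1, Col14a1, Col16a1 and Col22a1. They were taken by symbol, of 26970 genes in a table that lists 44 collagen genes, and each symbol matched 1 row. RNA was sequenced from condyles of 4-month-old WT mice, heterozygous knockout mice (Dspp+/-) and homozygous knockout mice (Dspp-/-), with 1 library per genotype. The knockout of Dspp, the gene for dentin sialophosphoprotein, is global and in the C57BL/6 background, and heterozygous mice came from crossing homozygous with wild-type mice. Condyles of 3 animals went into 1 pool for WT and another 3 for Dspp+/-, and the number behind the Dspp-/- sample is not given in the sources used here. The condyles were taken with cartilage and subchondral bone still joined. Each difference below is between single libraries, so the spread between mice is not known and genotypes could not be tested against each other.

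Collagen VI forms beaded microfilaments around cells, and its basic unit is a heterotrimer of the chains encoded by Col6a1, Col6a2 and Col6a3. Collagens XII, XIV, XVI and XXII (Col12a1, Col14a1, Col16a1, Col22a1) are fibril-associated collagens with interrupted triple helices, which lie on or near the fibrils of other collagens and link them to the surrounding matrix or to cells. Collagen VIII is a short-chain collagen that forms open networks, and its chains are encoded by Col8a1 and Col8a2. In joints, collagen VI is known as the marker of the pericellular matrix of chondrocytes, and collagen XII as a component of dense connective tissue and bone surfaces.

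Levels are given as FPKM, the fragments of a gene scaled by its length and by the depth of the library. The 8 genes had from 690 to 31944 fragments in a library. Where 3 values are listed without names, they stand for the WT, Dspp+/- and Dspp-/- libraries in that order. The depths recovered from the values were 20241577, 23613617 and 22253162 fragments. Intervals are 95% Clopper-Pearson intervals from recovered fragments and cover counting error only, not the spread between mice. Genes of the condyle's own tissues were present in WT, with Acan, the main cartilage proteoglycan gene, at 84.1 FPKM and Bglap, the osteocalcin gene, at 1353 FPKM, while Matn1, a cartilage matrix gene, had 2, 0 and 3 fragments in WT, Dspp+/- and Dspp-/-. Skeletal muscle RNA was also present, with Acta1, the muscle actin gene, at 5609 FPKM in WT. The libraries also differed in markers of blood and marrow: 20 genes of red cell precursors and neutrophils summed to 1498, 6457 and 7159 FPKM, and mitochondrial genes took 25.02%, 36.9% and 37.3% of the summed FPKM. Xist, the X-inactivation RNA of female cells, had 2, 12084 and 10563 fragments, so the sex of the pooled animals and genotype cannot be told apart. The Dspp gene was not analysed here, and the genotype labels were therefore not checked against it.

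In Dspp+/-, 7 of the 8 genes were lower than in WT and Col14a1 did not differ from WT by more than counting error. Of all 13026 compared genes, 5688 were lower and 7337 higher than in WT by any amount. Those past 2-fold lower, by log2(FPKM + 1), numbered 6: the 3 collagen VI genes, Col12a1, Col16a1 and Col22a1, and 0 were past 2-fold higher. Over the 13026 genes that averaged 1 FPKM or more, 2.86% were past 2-fold lower and 4.88% past 2-fold higher, which are 373 and 636 genes. With libraries scaled to housekeeping genes these counts were 706 and 391. The median log2 ratio was -1.23 over the 8 genes and 0.06 over all compared genes. In Dspp-/-, the same fold was passed by Col16a1 alone, against 1.37% of all compared genes lower and 4.05% higher (179 and 527 genes, and 279 and 434 with housekeeping scaling), and the median log2 ratio was -0.62 over the 8 genes and 0.01 over all compared genes. All 8 genes passed the filter of 1 FPKM. In pooled tissue, fewer cells of a type and less RNA per cell cannot be told apart.

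**Figure D1:**
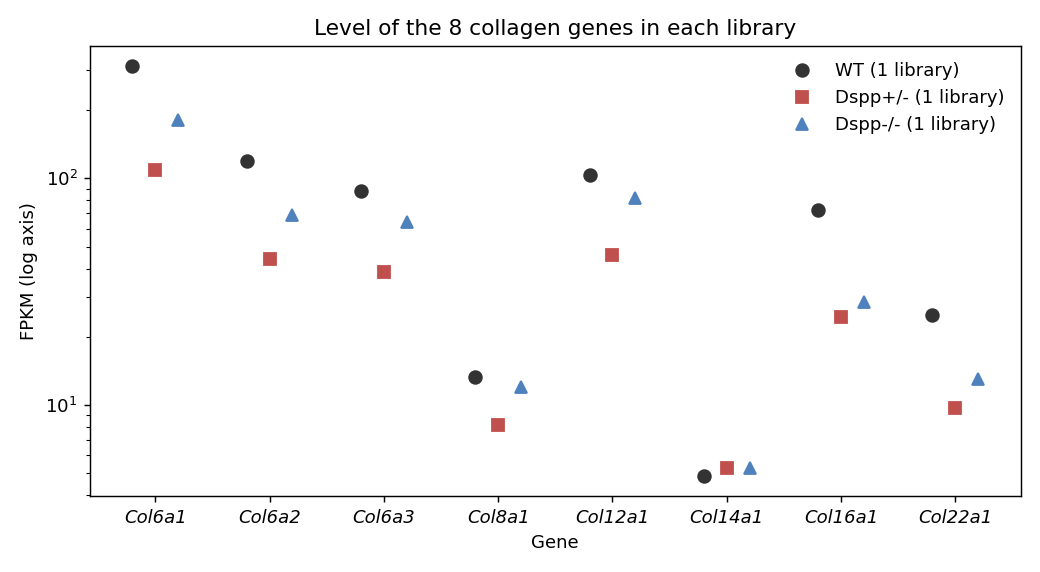
FPKM (log axis) of the 8 collagen genes in the WT, Dspp+/- and Dspp-/- libraries, 1 point per library; counting intervals are not drawn. Col6a1 is highest in every library, from 108 FPKM in Dspp+/- to 312 in WT, and Col14a1 is lowest in every library, between 4.86 and 5.29 FPKM.

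The 3 collagen VI genes had the same order of libraries, and their positions are those of the authors' table. Col6a1 (ENSMUSG00000001119), the gene of the alpha 1 chain on chromosome 10 (76544626 to 76562002), had 312, 108 and 182 FPKM. Against WT its folds were 0.347 (0.340 to 0.355) for Dspp+/- and 0.581 (0.570 to 0.592) for Dspp-/-. The WT library was highest, the Dspp+/- library lowest and the Dspp-/- library in between. Col6a2 (ENSMUSG00000020241), the gene of the alpha 2 chain on the same strand of chromosome 10 from 76431596 to 76459464, had 119, 44.1 and 69.2 FPKM. Its folds of 0.370 (0.360 to 0.379) and 0.580 (0.567 to 0.593) were near those of Col6a1, and the intervals of the 2 genes overlap in Dspp-/- but not in Dspp+/-. Col6a3 (ENSMUSG00000048126), the gene of the alpha 3 chain, lies apart from them on chromosome 1 (90693645 to 90771693), and had 88.2, 38.6 and 63.9 FPKM. It was less far below WT than the other two, with folds of 0.438 (0.428 to 0.448) and 0.725 (0.711 to 0.740). The table names no build, and for these genes its positions are not those of GRCm38.

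The bases before the transcription start of the collagen VI genes are shown because the 3 genes encode chains of 1 protein and were lower together. They are the 250 bases before a RefSeq start in GRCm38.p6, 5′ to 3′ on the strand of the gene, which for all 3 is the minus strand. Capitals mark an AP-1 motif (TGANTCA) or a GC box (GGGCGG), each searched on both strands.
Col6a1, chr10:76726045-76726294: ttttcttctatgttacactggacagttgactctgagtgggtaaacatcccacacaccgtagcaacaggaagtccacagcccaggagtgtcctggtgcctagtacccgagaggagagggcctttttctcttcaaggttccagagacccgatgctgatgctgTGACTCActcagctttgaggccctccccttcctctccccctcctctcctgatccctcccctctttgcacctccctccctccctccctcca
Col6a2, chr10:76623631-76623880: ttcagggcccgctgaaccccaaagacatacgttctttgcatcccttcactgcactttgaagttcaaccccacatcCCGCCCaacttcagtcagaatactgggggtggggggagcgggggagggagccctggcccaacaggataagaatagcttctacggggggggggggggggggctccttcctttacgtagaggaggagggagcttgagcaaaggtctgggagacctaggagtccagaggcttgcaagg
Col6a3, chr1:90843972-90844221: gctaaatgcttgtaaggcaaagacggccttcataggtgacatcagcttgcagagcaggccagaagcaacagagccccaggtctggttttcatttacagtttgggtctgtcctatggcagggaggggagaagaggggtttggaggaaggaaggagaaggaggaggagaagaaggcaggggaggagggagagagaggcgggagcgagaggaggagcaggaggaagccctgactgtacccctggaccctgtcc
The window of Col6a1 holds 1 AP-1 motif, 90 to 84 bases before the start, which 6.75% of 32851 such windows of mouse genes hold. That of Col6a2 holds 1 GC box, 175 to 170 bases before the start, found in 32.7% of windows, and this gene has a second RefSeq start, whose window holds 3 GC boxes and is not printed. The window of Col6a3 holds neither motif, and none of the windows printed holds a TATA box (TATAAA, in 12.4% of windows) or a CCAAT box (CCAAT, in 33.8%). Of the 8 genes, 5 had an entry in the RefSeq promoter table. The other windows found were those of Col8a1, with 4 GC boxes, and Col16a1, with 1 GC box and 1 CCAAT box.

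Ratios between chains within a library do not depend on how the libraries are scaled. The Col6a1 to Col6a3 ratio of FPKM was 3.54 (3.48 to 3.61), 2.81 (2.74 to 2.89) and 2.84 (2.78 to 2.90). Both mutant libraries were lower than WT by more than counting error, and their intervals overlap each other. The Col6a2 to Col6a3 ratio was 1.36 (1.33 to 1.38), 1.14 (1.11 to 1.18) and 1.08 (1.06 to 1.11), again highest in WT. The Col6a1 to Col6a2 ratio moved less, with 2.62 (2.57 to 2.66), 2.46 (2.39 to 2.53) and 2.62 (2.56 to 2.68). The Col6a3 transcript therefore made up a larger part of the collagen VI transcripts in both mutant libraries than in WT. The size of such a ratio depends on the gene length used: with the longest coding transcript of each gene, Col6a1 to Col6a2 was 1.56 in WT, while the change between libraries is the same with either length.

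**Figure D2:**
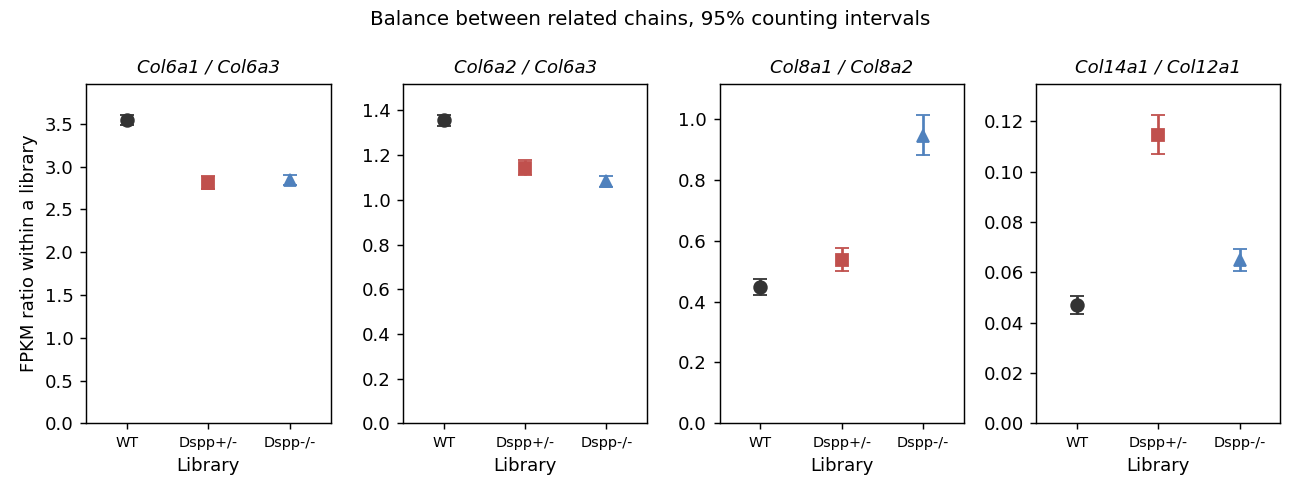
Ratio of FPKM between 2 collagen genes within each library (axes from 0), with 95% counting intervals; each point is 1 library. Col6a1 and Col6a2 relative to Col6a3 are highest in WT (3.54 and 1.36), Col8a1 relative to Col8a2 is highest in Dspp-/- (0.945), and Col14a1 relative to Col12a1 is highest in Dspp+/- (0.115).

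The other collagen VI genes, Col6a4, Col6a5 and Col6a6, encode chains that can take the place of alpha 3, and their levels were low. Col6a5 had 86, 55 and 68 fragments, and Col6a6 had 50, 63 and 62. Col6a4 had 3 fragments in WT, at the floor of 3 fragments, and 0 in both mutant libraries. All 3 had a mean under 1 FPKM, whereas Col6a3 was at 38.6 FPKM in its lowest library.

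Among the fibril-associated collagens, Col12a1 (ENSMUSG00000032332), the gene of collagen XII on chromosome 9 (79506273 to 79626113), had 104, 45.9 and 81.6 FPKM. Its folds were 0.443 (0.435 to 0.452) for Dspp+/- and 0.787 (0.775 to 0.800) for Dspp-/-, and the Dspp-/- library lay nearer to WT. Between the mutant libraries it had the widest gap of the 8 genes, with a fold of 1.78 (1.74 to 1.81) in Dspp-/- over Dspp+/-. Col14a1 (ENSMUSG00000022371), the gene of collagen XIV on chromosome 15 (55171146 to 55384199), had 4.86, 5.27 and 5.29 FPKM, from 690, 872 and 825 fragments. Its folds of 1.08 (0.979 to 1.20) and 1.09 (0.982 to 1.21) have intervals that include 1, and the sign of its log2 ratio turned from 0.10 to -0.15 in Dspp+/- and to -0.01 in Dspp-/- when libraries were scaled to housekeeping genes. Collagens XII and XIV are closely related in structure, and both decorate collagen I fibrils. The Col14a1 to Col12a1 ratio, chosen after the values were seen, was 0.0469 (0.0434 to 0.0506), 0.115 (0.107 to 0.123) and 0.0648 (0.0604 to 0.0694), highest in Dspp+/-. The 3 intervals do not overlap.

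Col16a1 and Col22a1 had the lowest folds of the fibril-associated genes in both mutant libraries. Col16a1 (ENSMUSG00000040690), the gene of collagen XVI on chromosome 4 (129941633 to 129993076), had 72.7, 24.3 and 28.3 FPKM. Its folds were 0.335 (0.323 to 0.348) and 0.390 (0.376 to 0.404), so both mutant libraries were well below WT and near each other, and the fold of Dspp-/- over Dspp+/- was 1.16 (1.11 to 1.22). Col22a1 (ENSMUSG00000079022), the gene of collagen XXII, which is known from the junction of muscle and tendon and from other tissue junctions, lies on chromosome 15 (71667644 to 71906076). It had 24.9, 9.64 and 13.0 FPKM, with folds of 0.386 (0.367 to 0.407) and 0.520 (0.496 to 0.546). Relative to Col12a1 in the same library, by ratios chosen after the values were seen, Col16a1 stood at 0.701 (0.686 to 0.717), 0.530 (0.512 to 0.549) and 0.347 (0.336 to 0.359). The corresponding ratios of Col22a1 were 0.241 (0.233 to 0.248), 0.210 (0.200 to 0.219) and 0.159 (0.153 to 0.165). Both ratios were therefore lowest in the homozygous library. The 12 skeletal muscle markers, none at 0, did not move as 1 group. In Dspp+/-, 9 were higher and 3 lower than in WT, with a median log2 ratio of 0.25. Past 2-fold lower were 2, Myh4 (124, 18.2 and 111 FPKM) and Actn3 (122, 31.0 and 89.5 FPKM). Past 2-fold higher was 1, Myh2 (342, 706 and 359 FPKM). Their sum of 12648, 16873 and 13788 FPKM was 12648, 13681 and 12557 with housekeeping scaling. Acta1 was the most abundant of them, with 5609, 8162 and 7150 FPKM, and without it the sums were 7039, 8711 and 6638. Their part in the Col22a1 values was not tested. An exon of an antisense gene overlaps 0.174% of the exon length of Col22a1 in GENCODE M21, and the other 7 genes overlap no exon of another gene.

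**Figure D3:**
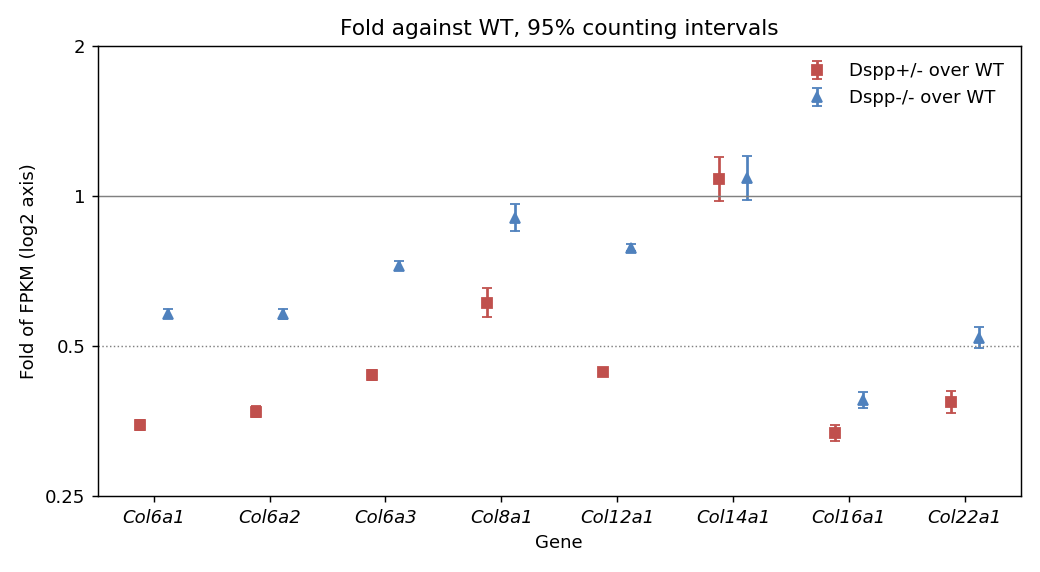
Fold of FPKM against WT (log2 axis) for each gene in Dspp+/- (squares) and Dspp-/- (triangles), with 95% counting intervals; solid and dotted lines mark folds of 1 and 0.5, and both folds share the WT library. Col16a1 has the lowest fold in both (0.335 and 0.390), and only the intervals of Col14a1 include 1.

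Col8a1 (ENSMUSG00000068196), the gene of the alpha 1 chain of collagen VIII on chromosome 16 (57444621 to 57575100), had 13.3, 8.12 and 12.03 FPKM. The fold was 0.611 (0.571 to 0.653) in Dspp+/-, which did not reach 2-fold, and 0.905 (0.851 to 0.962) in Dspp-/-, where the log2 ratio was -0.03 when mitochondrial genes were left out of the scaling. Col8a2, the gene of its partner chain and not one of the 8 genes, had 29.7, 15.1 and 12.7 FPKM, so its lowest library was Dspp-/- and not Dspp+/-. The Col8a1 to Col8a2 ratio, also chosen after the values were seen, was 0.447 (0.422 to 0.474), 0.537 (0.5001 to 0.576) and 0.945 (0.881 to 1.01). The 2 chains thus stood near 1 to 1 by the authors' lengths only in the homozygous library. With the longest coding transcript as the length, the level of Col8a1 was 18.4 and that of Col8a2 13.2 there. Markers of smooth muscle and pericytes, whose vessels are a known site of collagen VIII, summed to 770, 956 and 721 FPKM. Most of that sum was Des (517, 663 and 429 FPKM), the desmin gene, which skeletal muscle also expresses, and without it the sums were 253, 293 and 292. With housekeeping scaling, the smooth muscle and pericyte sums, Des included, were 770, 775 and 657. The 10 endothelial markers summed to 213, 229 and 218 FPKM, and to 213, 186 and 198 with housekeeping scaling, so their order against WT depended on the scaling. None of either list was at 0, and their part in the Col8a1 values was not tested.

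By level, the order in WT was Col6a1, Col6a2, Col12a1, Col6a3, Col16a1, Col22a1, Col8a1 and Col14a1. All neighbours in this order differed by more than counting error, the closest being Col6a2 and Col12a1 with a ratio of 1.15 (1.13 to 1.17). In both mutant libraries Col12a1 stood above Col6a2, by a ratio of 1.04 (1.01 to 1.07) in Dspp+/- and 1.18 (1.15 to 1.20) in Dspp-/-, and the other places were the same. That change of place depends on the length: with the longest coding transcript, Col6a2 was above Col12a1 in all 3 libraries, at 79.0 against 60.8 in Dspp+/-, and Col8a1 was above Col22a1 in both mutant libraries, at 12.5 against 10.1 in Dspp+/-. From the highest to the lowest of the 8 genes, the span was from 312 to 4.86 FPKM in WT and narrower in Dspp+/-, from 108 to 5.27 FPKM.

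The Dspp-/- library had the higher level of the 2 mutant libraries for 7 of the 8 genes, and for Col14a1 the fold of Dspp-/- over Dspp+/- was 1.00 (0.912 to 1.11). Of all compared genes, 5817 were higher and 7207 lower in Dspp-/- than in Dspp+/- by any amount. None of the 8 passed 2-fold between the mutant libraries, where 0.852% of all compared genes were at least 2-fold higher in Dspp-/- and 0.798% lower. The folds of Dspp-/- over Dspp+/- were 1.67 (1.63 to 1.71) for Col6a1, 1.57 (1.53 to 1.61) for Col6a2 and 1.66 (1.62 to 1.70) for Col6a3. Those of Col8a1 and Col22a1 were 1.48 (1.39 to 1.58) and 1.35 (1.27 to 1.43). The median log2 ratio was 0.58 over the 8 genes and -0.04 over all compared genes.

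Of the 36 other collagen genes, 22 averaged 1 FPKM or more, and 15 of these were at least 2-fold lower in Dspp+/- and 7 in Dspp-/-. The median log2 ratios of these 22 were -1.66 and -0.91, but over all 36 listed genes, low ones included, they were -0.76 and -0.64, so in Dspp+/- the place of the 8 genes, above or below the median of the other collagens, depended on the filter. The 11 fibrillar collagen genes, which form the fibrils that the fibril-associated collagens bind, had medians of -1.74 and -0.89. Among them Col2a1, the main collagen gene of cartilage, was lowest in Dspp+/-, with 761, 94.2 and 308 FPKM, and Col5a3 was nearest to WT, with 14.2, 8.04 and 7.96 FPKM. Of 14 basement membrane, anchoring and transmembrane collagen genes, 6 were compared, with medians of -0.75 and -0.63, against -0.16 and -0.28 over all 14. The 6 ran in Dspp+/- from Col13a1, a transmembrane collagen gene with 17.8, 4.84 and 7.56 FPKM, to Col25a1 with 0.937, 0.988 and 1.15 FPKM. Of the further fibril-associated, beaded and short-chain collagen genes, 5 of 11 were compared, with medians of -2.93 and -1.19, against -0.37 and -0.30 over all 11. Col6a4, Col6a5, Col6a6 and Col28a1 were among those not compared. The 4 cartilage genes among them had values of 14.9, 0.443 and 7.39 FPKM for Col9a1, 22.2, 2.19 and 6.27 FPKM for Col9a2, 18.8, 1.59 and 6.75 FPKM for Col9a3, and 246, 17.3 and 107 FPKM for Col10a1. Col21a1 was not analysed here. The difference between the 8 genes and these lists was not tested.

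Within the summed FPKM of all collagen genes, the 8 genes held 5.84%, 8.60% and 6.69%. The 8 genes summed to 739, 284 and 455 FPKM, against 11928, 3022 and 6346 FPKM for the other collagens. Their share was thus larger in both mutant libraries although their level was lower. Collagen VI held 4.11%, 5.78% and 4.63% of the collagen FPKM, and the 4 fibril-associated genes 1.63%, 2.58% and 1.89%. Relative to Col1a1, the main collagen gene of bone (ratios chosen after the values were seen), Col12a1 stood at 0.0155 (0.0154 to 0.0157), 0.0267 (0.0263 to 0.0272) and 0.0226 (0.0223 to 0.0229), lowest in WT. Col16a1 did not follow that order, with 0.0109 (0.0107 to 0.0111), 0.0142 (0.0137 to 0.0146) and 0.00785 (0.00761 to 0.00809), so its ratio to Col1a1 was below that of WT in the homozygous library. The Col22a1 ratio was 0.00374 (0.00363 to 0.00385), 0.00561 (0.00537 to 0.00585) and 0.00359 (0.00346 to 0.00373), and its WT and Dspp-/- intervals overlap. The ratios of Col6a1, Col6a2, Col6a3, Col8a1 and Col14a1 to Col1a1 were lowest in WT.

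By the pair of log2 ratios to WT, the nearest of the 29 other compared collagen genes was found for each of the 8 genes, as a description over 3 libraries of which WT is shared. Col6a1 was nearest to Col24a1, a fibrillar collagen gene, at a distance of 0.03 on the log2 scale, and Col6a2 to Col6a1 at 0.10. Col6a3 and Col12a1 were each other's nearest gene, at 0.12. Col22a1 was nearest to Col6a2 at 0.17, Col16a1 to Col13a1 at 0.24 and Col14a1 to Col25a1 at 0.08. Col25a1 averaged 1.02 FPKM, near the filter, where log2 ratios of FPKM + 1 understate a change. Its folds of FPKM against WT were 1.06 in Dspp+/- and 1.23 in Dspp-/-, beside 1.08 and 1.09 for Col14a1. Col8a1 had no close neighbour, since its nearest gene, Col15a1, was 0.39 away.

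Collagen-binding receptors were mostly lower too. Of 10 genes for collagen-binding receptors and their subunits, 9 were lower and 1 higher in Dspp+/-, none by 2-fold. Of all 13026 compared genes, 5688 were lower there. The median log2 ratio of the 10 was -0.68 in Dspp+/- and -0.25 in Dspp-/-. Antxr1, which encodes an anthrax toxin receptor that binds collagen, was lowest in Dspp+/-, with 32.6, 16.7 and 28.0 FPKM. Cspg4, the gene of the NG2 proteoglycan that binds collagen VI, had 17.5, 9.10 and 9.32 FPKM. Itga1, the alpha subunit of a collagen-binding integrin, was the 1 gene above WT, with 4.32, 6.73 and 5.99 FPKM. Of 16 genes for matrix partners, 14 were compared, and 4 of them were at least 2-fold lower in Dspp+/- and 1 in Dspp-/-, with medians of -0.54 and -0.39. Postn, the periostin gene, was lowest in Dspp+/-, with 431, 145 and 351 FPKM. Tnxb, the tenascin X gene, stood highest, with 4.71, 6.48 and 4.29 FPKM.

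Marker genes of the cells that the dissected tissue could hold stood at different levels in the 3 libraries. All 11 osteoblast markers were lower in Dspp+/-, 10 of them at least 2-fold, and their summed level was 4260, 1256 and 2201 FPKM. They ran from Ibsp, the bone sialoprotein gene, with a log2 ratio of -1.92, to Runx2, an osteoblast transcription factor gene, with -0.78. Chondrocyte markers summed to 1288, 852 and 725 FPKM, and of the 9 compared 4 were at least 2-fold lower in Dspp+/-, from Cnmd (chondromodulin) at -2.80 to Prg4 (lubricin) at 0.73. Most of that sum was Chad, the chondroadherin gene, with 962, 643 and 523 FPKM. The order of the mutant libraries in the sum was not that of most of the list, as 6 of the 9 were higher in Dspp-/- than in Dspp+/-, 3 of them past 2-fold and 0 past 2-fold lower, with a median log2 ratio of 0.44. Of 15 tendon and fibroblast markers, 11 were lower in Dspp+/-, 2 of them at least 2-fold, and 4 higher, and they summed to 1176, 726 and 1085 FPKM, of which Lum, the lumican gene, had 512, 224 and 478.3. They ran from Fap, a fibroblast protease gene, at -1.20 to Pi16 at 1.00, and their median was -0.28. Adipocyte markers summed to 144, 92.4 and 240.0 FPKM. Car3 was the most abundant of them, with 85.1, 38.8 and 105 FPKM, and without it the sums were 58.5, 53.6 and 134.7. Of the 8 compared, 3 were higher and 5 lower in Dspp+/-, while all 8 were higher in Dspp-/-, 5 of them past 2-fold. The sums of the osteoblast, tendon and fibroblast, and adipocyte markers were each lowest in Dspp+/-, as was that of the 8 genes. The adipocyte sum was highest in Dspp-/-, whereas that of the 8 genes was highest in WT. The part of these cell types in the values of the 8 genes was not tested. For the 10 endothelial markers, the medians against WT were 0.06 in Dspp+/- and 0.11 in Dspp-/- (log2).

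**Figure D4:**
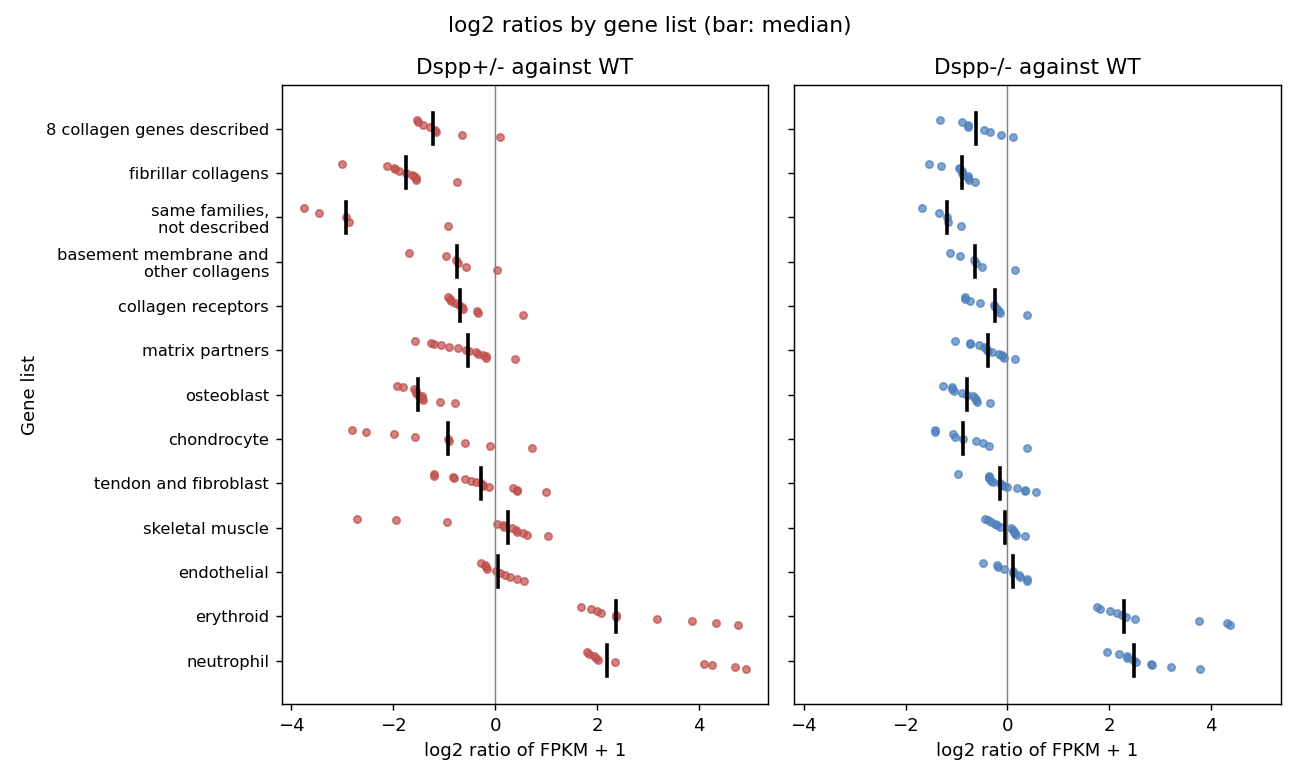
log2 ratio of FPKM + 1 to WT for genes averaging 1 FPKM or more, by gene list, in Dspp+/- (left) and Dspp-/- (right); each point is 1 gene and the bar is the median of the list, and both panels share the WT library. The 8 collagen genes have medians of -1.23 and -0.62, between those of the fibrillar collagens (-1.74 and -0.89) and the collagen receptors (-0.68 and -0.25), while the erythroid markers lie at 2.38 and 2.28.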

How the data were processed

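Poly(A)-selected RNA of pooled condyles was sequenced in pairs of 150 bases. The authors deposited 1 value per gene and genotype, in a unit that the table does not name. The values were read as FPKM, because the deposited FPKM times the length of each gene's merged exons (GENCODE M21), divided by 1 constant per library, returned whole fragments, to within 0.05, in every library for 98.2% of the 26641 genes that have a length there. The constant, which gives the depth, was fitted from the same values. Col1a1 was not among the 98.2%, so its fragments, used in the intervals of the ratios to Col1a1, are rounded values. The labels mention triplicates, and each column was treated as 1 library of pooled tissue. The submitters' processing notes name FastQC 0.11.5, HISAT2 2.1.0, StringTie 1.3.3b and DESeq 1.28.0, with no role or order, and the build hg38, which is a human build. The annotation and the filters are not given in the sources used here. FPKM carries no correction for library composition: where some genes take a larger part of the fragments, the others lose FPKM.

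The 8 genes and the gene lists were chosen with earlier results of these data known. Genes averaging 1 FPKM or more were compared as log2 ratios of FPKM + 1, which understates the change of low genes, and called at 2-fold. The Kruskal-Wallis test of the study needs replicates, and no p-value is given. Fold intervals came from the recovered fragments, with a floor of 3 fragments. Recovery was tested on simulated data. Genes named are the 8 genes, the nearest other collagen gene of each, and members of the same families. Also named are the lowest and highest gene of each list in Dspp+/-, except for the endothelial, adipocyte, erythroid, neutrophil and housekeeping lists. Others were chosen after their values were seen, for their known role or their use as tissue markers. The housekeeping list was used only for scaling. Of its 10 genes, 9 were above WT in Dspp+/-, with a median log2 ratio of 0.21, and 7 in Dspp-/-, with 0.15. The list itself was not uniform, as Gapdh had 3.79, 7.90 and 2.24 FPKM. In the alternatives, 13 in all, the pseudocount, scaling, threshold, filter and basis of the collagen share were varied. The length of the longest coding transcript, list medians over all listed genes and marker sums set beside their most abundant gene were added after seeing the data. Computation used scipy 1.17.1, pandas 2.3.3 and numpy 2.4.6 under Python 3.11.15, and drawing used matplotlib 3.10.9.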

Additional observations from a re-analysis of the deposited data

How the results depend on the processing

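No paired analysis was possible because each genotype has 1 library, and for the same reason no library could be left out. Of 216 log2 ratios of the 8 genes under the alternatives of pseudocount, scaling and filter, 4 changed sign, and all 4 were of Col14a1. Of the 216, 75 moved from the main value by more than counting error, so the counting intervals do not cover the choice of processing. The median log2 ratio of the 8 genes in Dspp+/- was -1.09 with a pseudocount of 5, -1.29 with median-ratio, -1.31 with upper-quartile and -1.51 with housekeeping scaling, and -1.12 without mitochondrial genes in the scaling. In Dspp-/- it was -0.59 with a pseudocount of 5, -0.65 with upper-quartile and -0.75 with housekeeping scaling, and -0.51 without mitochondrial genes. Between the mutant libraries it was 0.49 with a pseudocount of 5 and 0.73 with housekeeping scaling. Housekeeping scaling shifted the median of all compared genes by -0.24 in Dspp+/- and by -0.11 in Dspp-/-, and with it 2 genes in place of 1 were at least 2-fold lower in Dspp-/-. With a threshold of 1.5-fold, 4 genes passed as lower in Dspp-/- (8.21% of all compared genes), and between the mutant libraries 4 passed as higher in Dspp-/- (3.39%), while at 4-fold 0 were lower in Dspp+/- (0.184%) and 0 in Dspp-/- (0.0461%). Without the filter, the medians of the 36 other collagen genes were -0.76 and -0.64, against -1.66 and -0.91 with it.

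Over all compared genes, the 636 higher and 373 lower in Dspp+/- became 391 and 706 with housekeeping scaling, 971 and 605 with a pseudocount of 0.1, and 185 and 156 with a pseudocount of 5. Without Col1a1, Col1a2 and Col2a1 in the sum, the 8 genes held 30.2%, 35.8% and 32.8% of the collagen FPKM in the WT, Dspp+/- and Dspp-/- libraries. By fragments, not per length, they held 5.58% in WT and 6.74% in Dspp-/-. With the longest coding transcript as the length, Col6a1 to Col6a2 was 1.56 in WT, 1.47 in Dspp+/- and 1.57 in Dspp-/-, Col6a1 to Col6a3 was 3.20, 2.54 and 2.56, and Col6a2 to Col6a3 was 2.05, 1.73 and 1.64. The number of libraries, not depth, limits these results, since the 8 genes had from 690 to 31944 fragments per library.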

Other observations

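Some collagen genes outside the 8 stayed under a mean of 1 FPKM and entered no comparison. Col20a1, a fibril-associated collagen gene, had 43, 85 and 76 fragments in the WT, Dspp+/- and Dspp-/- libraries, with folds against WT of 1.69 (1.16 to 2.51) and 1.61 (1.09 to 2.39). No other collagen gene with enough fragments for an interval had intervals above 1 in both mutant libraries. Col28a1, a beaded-type collagen gene, had 120, 82 and 87 fragments, with folds of 0.586 (0.437 to 0.782) and 0.659 (0.495 to 0.876). Col19a1 had 3, 4 and 4 fragments, at or next to the floor of 3.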
